A study of Mus musculus with 36 samples.

Results

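The mouse immunoglobulin kappa variable segments (Igkv) were 103 genes of the 27179 listed in each library, taken as every gene whose Entrez identifier mapped to a mouse symbol beginning Igkv. Of these, 102 were annotated as V segments and 1, Igkv13-71-1, as a pseudogene, with 0 reads in every library. All lie on chromosome 6, between 67555636 and 70704177 of GRCm38, and Igkc, the kappa constant gene, lies beyond the end that holds Igkv3-1. The segments are short, with a median gene span of 531 bases and a range of 211 to 767.

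A kappa light chain is made when a developing B cell joins a single Igkv segment to a J segment by V(D)J recombination, and the joined exon is then spliced to Igkc. Each B cell and its descendants therefore transcribe mostly the same segment, and the mix of segments in bulk RNA mirrors which clones are present and how much light chain RNA each one makes. Plasma cells, the antibody-secreting end stage of the lineage, transcribe their joined segment at far higher levels than resting B cells do, and in the gut most of them secrete IgA. The symbol's first number gives a segment's sequence family.

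The study compared mice carrying or lacking lnc13, a long noncoding RNA, in a series on oral tolerance to gluten. The 12 libraries used here came from the small intestine of gluten-challenged lnc13-WT-DQ8 and lnc13-KO-DQ8 mice, sequenced as polyadenylated RNA, and 24 further libraries of the series were not used. WT and KO libraries thus shared the challenge and the DQ8 background, DQ8 being a human class II molecule linked to coeliac disease. Each genotype had 2 libraries, labelled biological replicates, of whole tissue, of lamina propria lymphocyte (LPL) preparations and of intraepithelial lymphocyte (IEL) preparations, and age, sex and pooling of animals were not given in the labels. As no label says whether libraries of different preparations came from the same mice, p-values measure the spread between these libraries. No gene named lnc13 was matched in the tables, so the knockout itself was not checked here.

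Reads assigned to genes ran from 10186522 to 13620975 per library. Levels are CPM (counts scaled to a common library size) scaled by TMM factors, and shares are percent of a library's Igkv reads, with exact Clopper-Pearson 95% intervals that cover counting error only. The 12 plasma cell markers summed to 715 to 1323 CPM in tissue, 1313 to 6518 in LPL and 501 to 639 in IEL libraries. Txndc5 and Xbp1, which are not confined to plasma cells, carried most of the IEL sums, at 184 to 231 and 178 to 187 CPM. These sums are therefore not a measure of plasma cell content alone. The 12 B cell markers summed to 132 CPM in WT tissue 1 and 248 in WT LPL 1, against 11.8 to 49.5 in the other 10 libraries. No defining marker of either list was at 0 in all libraries. The 5 epithelium markers summed to 12870 to 20800 CPM in tissue, 5076 to 7452 in LPL and 9652 to 11220 in IEL libraries. The 5 exocrine pancreas markers summed to 2794 to 6449 CPM in LPL and at most 88.5 elsewhere. The 4 smooth muscle markers summed to 593 to 2633 in tissue, 16.0 to 145 in LPL and at most 4.55 in IEL libraries. The 6 T cell markers summed to 162 to 533 CPM in IEL and 2.77 to 66.9 in LPL libraries, although lamina propria isolates usually hold many T cells, so LPL is used here as the label's name. Ddx3y, a Y-linked gene, was found in replicate 2 of both tissue groups, with 34.0 CPM in WT and 38.7 in KO, and did not exceed 0.109 CPM elsewhere. Xist, an RNA of female cells, read 0.248 and 0 CPM in those libraries and 58.9 to 384 CPM in all others. Sex by these genes was thus mixed in tissue and female in LPL and IEL. Its part in comparisons with tissue was not tested.

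Igkv transcripts were most abundant in LPL libraries and least abundant in IEL libraries. Tissue held 2557 and 6405 Igkv reads in the WT libraries and 800 and 1955 in the KO libraries. LPL held 86969 and 10278 reads in WT and 29508 and 14297 in KO, and IEL held 1440 and 2183 in WT and 897 and 845 in KO. A single library, WT LPL 1, therefore supplied 55.0% of all 158134 Igkv reads.

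Scaled for depth, the segments summed to 221 and 528 CPM in WT tissue and 87 and 234 CPM in KO tissue. In LPL the sums were 6525 and 667 CPM in WT and 2555 and 883 CPM in KO. In IEL they were 128 and 218 CPM in WT and 91.5 and 77.9 CPM in KO. The 4 LPL libraries did not overlap the other 8, whereas tissue and IEL libraries overlapped. The mean was 267.5 ± 186.2 CPM in tissue, 2658 ± 2713 in LPL and 129.1 ± 63.3 in IEL (SD, n = 4 each), so that the LPL mean was 9.94 times that of tissue and 20.6 times that of IEL. Without WT LPL 1 the LPL mean was 1368 ± 1033 CPM (SD, n = 3), 5.12 times tissue and 10.6 times IEL. WT LPL 1 was 9.78 times WT LPL 2, a gap between replicates about as wide as that between the LPL and tissue means. Fewer kappa-expressing cells and less kappa RNA per cell cannot be told apart in bulk libraries.

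**Figure D1:**
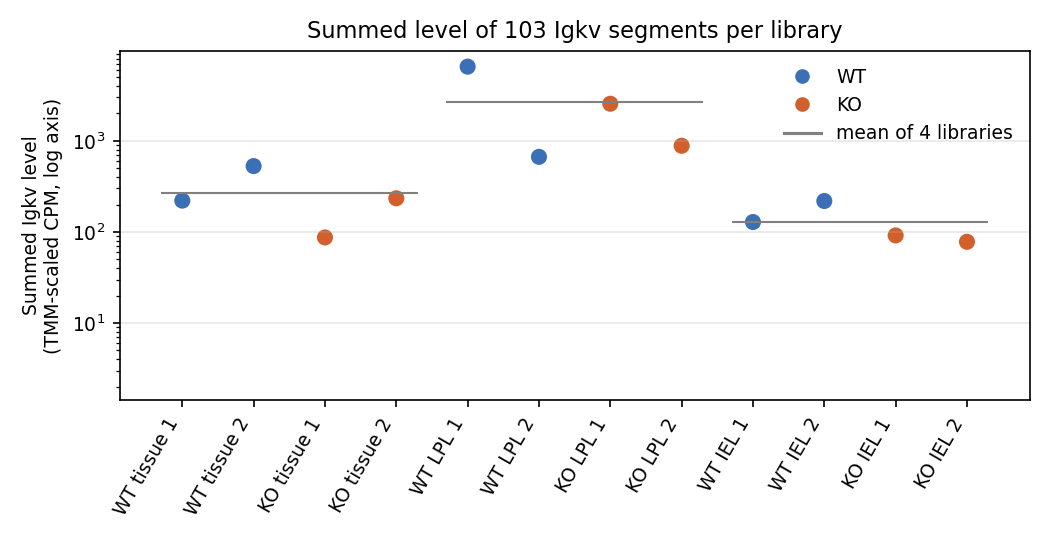
Summed level of the 103 Igkv segments in each library, in TMM-scaled CPM on a log axis, with WT in blue and KO in orange and a grey line at the mean of each preparation's 4 libraries. All 4 LPL libraries, at 667 to 6525 CPM, sit above the highest tissue library at 528 CPM, and IEL libraries lie at 77.9 to 218 CPM.

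Igkc moved in the same order, but its tissue levels overlapped those of both LPL and IEL libraries. Its level was 430, 1035, 156 and 521 CPM in WT tissue 1 and 2 and KO tissue 1 and 2. It was 10040, 968.5, 4184 and 1186 CPM in the LPL libraries in that order. IEL libraries held 181, 313, 124 and 118 CPM. By edgeR's quasi-likelihood test over all genes, Igkc was 2.95 higher (log2, SE 0.76, adjusted p = 0.01) in LPL than in tissue, and 4.48 lower (log2 difference -4.48, SE 0.82, adjusted p = 0.00641) in IEL than in LPL. Jchain, which joins IgA into dimers, differed by 2.69 (log2, SE 0.83, edgeR adjusted p = 0.0220) and -4.50 (SE 0.91, edgeR adjusted p = 0.00972) in the same comparisons. Neither gene was called in IEL against tissue. The log2 differences there were -1.53 for Igkc (SE 0.73, edgeR adjusted p = 0.115) and -1.81 for Jchain (SE 0.81, edgeR adjusted p = 0.0967).

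The number of Igkv reads for each Igkc read set tissue apart from the isolated preparations. It was 0.513 and 0.511 in WT tissue and 0.557 and 0.449 in KO tissue. In LPL libraries it was 0.650 and 0.689 in WT and 0.611 and 0.745 in KO, and in IEL libraries 0.710 and 0.697 in WT and 0.738 and 0.661 in KO. No tissue library reached the lowest LPL or IEL value, and WT and KO overlapped in each preparation. RNA extraction also differed along this line, since per the labels tissue was extracted with TRIzol and cells with a column kit, and its part in the ratio cannot be told apart from that of the preparation.

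Of the 103 segments, 32 were detected in all 12 libraries, 69 in some and 2 (Igkv1-131 and Igkv13-71-1) in none. Between 56 and 96 were detected per library. At a fixed 800 Igkv reads, the count of the smallest library, the expected number detected narrowed to 54.6 to 67.4. At that depth the LPL libraries gave 62.2 to 67.4 and the tissue libraries 62.8 to 66.6 segments, which overlap. IEL libraries gave 54.6 to 65.1, with the lowest value in KO IEL 1.

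The leading segment differed from library to library, and 10 different segments led the 12 libraries. In WT tissue 1 it was Igkv1-117 at 10.8% of Igkv reads (95% interval 9.58 to 12.02) and in WT tissue 2 it was Igkv4-59 at 13.9% (13.0 to 14.7). In KO tissue 1 it was Igkv1-110 at 18.3% (15.6 to 21.1) and in KO tissue 2 Igkv3-2 at 8.80% (7.58 to 10.1). The replicates of neither tissue group shared a leader.

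In WT LPL 1 Igkv6-23 led with 13.1% (12.9 to 13.3) and in WT LPL 2 Igkv1-110 with 12.5% (11.9 to 13.2). Igkv1-110 also led KO LPL 1, with 12.2% (11.8 to 12.6), while Igkv1-135 led KO LPL 2 with 9.45% (8.98 to 9.94). Each of these LPL leaders also exceeded 5% in at least 1 library that it did not lead.

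In IEL libraries the leaders were Igkv9-120 at 7.57% (6.26 to 9.06) in WT 1 and Igkv13-84 at 12.3% (10.9 to 13.7) in WT 2. In KO they were Igkv8-27 at 19.7% (17.2 to 22.5) in KO 1 and Igkv5-39 at 14.8% (12.5 to 17.4) in KO 2. Igkv13-84, Igkv8-27 and Igkv5-39 held at most 4.81% in any library they did not lead. These IEL shares rest on 109, 268, 177 and 125 reads of the leading segment. When reads were divided by gene span, the leader stayed the same in 6 libraries and changed in the other 6. Of those 6 leaders 5 were Igkv1 segments, which have long spans, such as Igkv1-110 at 739 bases. The span runs from the first to the last base on the chromosome, introns included. It is therefore not the length of the spliced RNA, and the changed leaders do not show an effect of RNA length.

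**Figure D2:**
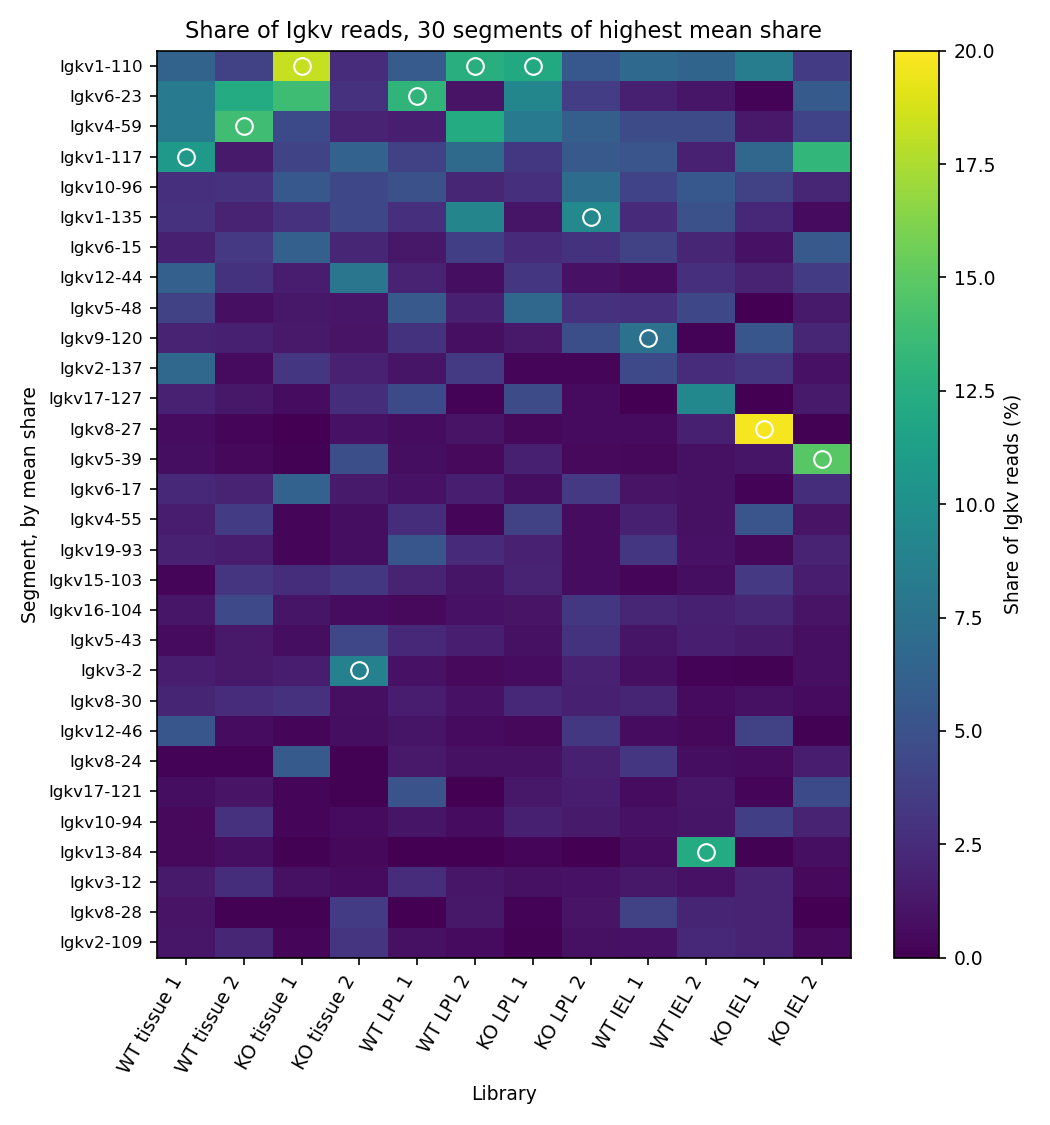
Share of Igkv reads, in percent by colour, for the 30 segments of highest mean share (rows) in the 12 libraries (columns), with a white ring on each library's leading segment. Igkv1-110, Igkv6-23 and Igkv4-59 are bright in several columns, whereas Igkv8-27 at 19.7%, Igkv5-39 at 14.8% and Igkv13-84 at 12.3% are bright in a single IEL column each.

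A small core of segments was common in every library. Only 5 of 103 exceeded 1% of Igkv reads in all 12, namely Igkv1-110, Igkv1-117, Igkv4-59, Igkv10-96 and Igkv6-15. Igkv1-110 (chr6:68270527-68271265) ran from 2.51% in KO tissue 2 to 18.3% in KO tissue 1, with a median of 6.39%, and stood among the 10 highest segments in 11 libraries. Igkv10-96 (chr6:68631965-68632430) was the steadiest of the 5, from 2.13% to 7.10%, with a median of 3.97%.

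Other abundant segments varied far more. Igkv6-23 (chr6:70260409-70260933) had the highest mean level of all segments, 103 CPM over the 12 libraries, which rests on 853 CPM in WT LPL 1. Without that library its mean was 35.0 CPM, below the 48.5 CPM of Igkv1-110, which also had the highest mean share (7.68% against 6.08%). The share of Igkv6-23 ran from 0.223% in KO IEL 1 to 13.8% in KO tissue 1. In WT LPL it held 13.1% in replicate 1 and 1.02% in replicate 2, so the replicates differed more than the genotypes did. Igkv13-84 (chr6:68939602-68940067) ran from 0.0195% in WT LPL 2 to 12.3% in WT IEL 2, a range of 631-fold. Of the 38 segments that were ever among a library's 10 highest, 13 were so in a single library and none in all 12. At the other end, 21 members had fewer than 10 reads in each library.

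The 10 highest segments together held 47.8% (WT IEL 1) to 70.1% (KO tissue 1) of a library's Igkv reads. The effective number of segments, the inverse of the summed squared shares, equals the number of equally common segments that would give the same evenness. It was 20.6 and 20.1 in WT tissue and 13.3 and 26.9 in KO tissue. It was 23.2 and 18.1 in WT LPL and 20.9 and 26.0 in KO LPL, and WT and KO overlapped in both preparations.

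In IEL libraries the effective number was 30.5 and 22.3 in WT and 14.7 and 15.9 in KO, with no overlap. Its mean was 26.4 ± 5.8 in WT IEL and 15.3 ± 0.81 in KO IEL (SD, n = 2 each). No test of this score over the members was run. The 3 lowest effective numbers, at most 15.9, were those of the 3 libraries with under 1000 Igkv reads, KO tissue 1 and both KO IEL libraries. The other 9 libraries were at 18.1 or more. A form corrected for the number of reads gave 13.5, 15.0 and 16.2 in those 3, but the part of low kappa abundance in the difference was not tested. Without its leading segment, KO IEL 1 rose to 22.3, whereas KO IEL 2 came to 17.7.

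**Figure D3:**
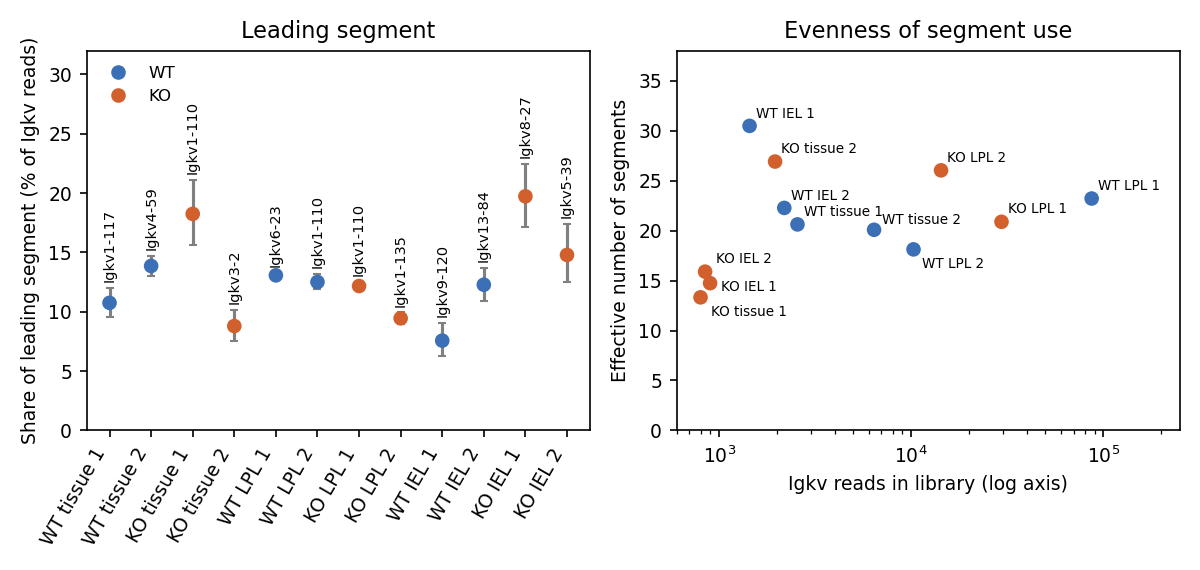
Left, share of the leading segment in each library, in percent of Igkv reads, with its exact 95% interval and the segment's name. Right, effective number of segments against the number of Igkv reads on a log axis, 1 point per library; the 3 libraries with under 1000 reads hold the 3 lowest values, 13.3, 14.7 and 15.9.

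Libraries of the same group were no more alike in segment use than libraries of different preparations. The shared repertoire, the sum over segments of the smaller of both shares, was 35.6% to 60.8% with a median of 52.5% over the 6 pairs of replicates. It was 41.8% to 66.4% (median 55.9%) over the 12 pairs of the same preparation and different genotype. It was 42.7% to 65.7% (median 53.3%) over the 48 pairs from different preparations. The least alike of all pairs was KO IEL 1 and KO IEL 2, at 35.6%. These pairs share libraries, and the values are given as a description.

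By sequence family, the 10 Igkv1 segments held a mean of 17.6% of Igkv reads and ranged from 7.65% in WT tissue 2 to 28.9% in WT LPL 2. The 28 Igkv4 segments, 27.2% of the members, held 16.2% on average, from 9.13% to 27.4%. The 9 Igkv6 segments held 15.4%, from 2.68% in KO IEL 1 to 27.9% in KO tissue 1. Igkv1 and Igkv4 each led 4 libraries and Igkv6 led 3. Families this similar in sequence can share reads, and how reads that match several segments were counted is not given in the sources used here, so counts of near-identical segments are uncertain.

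Along the locus, use was spread over its whole length. Cut into 4 equal stretches from the end farthest from Igkc, the locus gave median shares of 30.9%, 16.0%, 24.2% and 29.5%. The stretches hold 18.4%, 21.4%, 27.2% and 33.0% of the members, so the first held more reads than its share of segments in the median library. Its share ran from 17.3% in WT tissue 2 to 37.3% in WT IEL 1, and it held more than 18.4% in 11 of the 12 libraries. Igkv1-110, Igkv1-117, Igkv1-135 and Igkv9-120 lie in it.

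**Figure D4:**
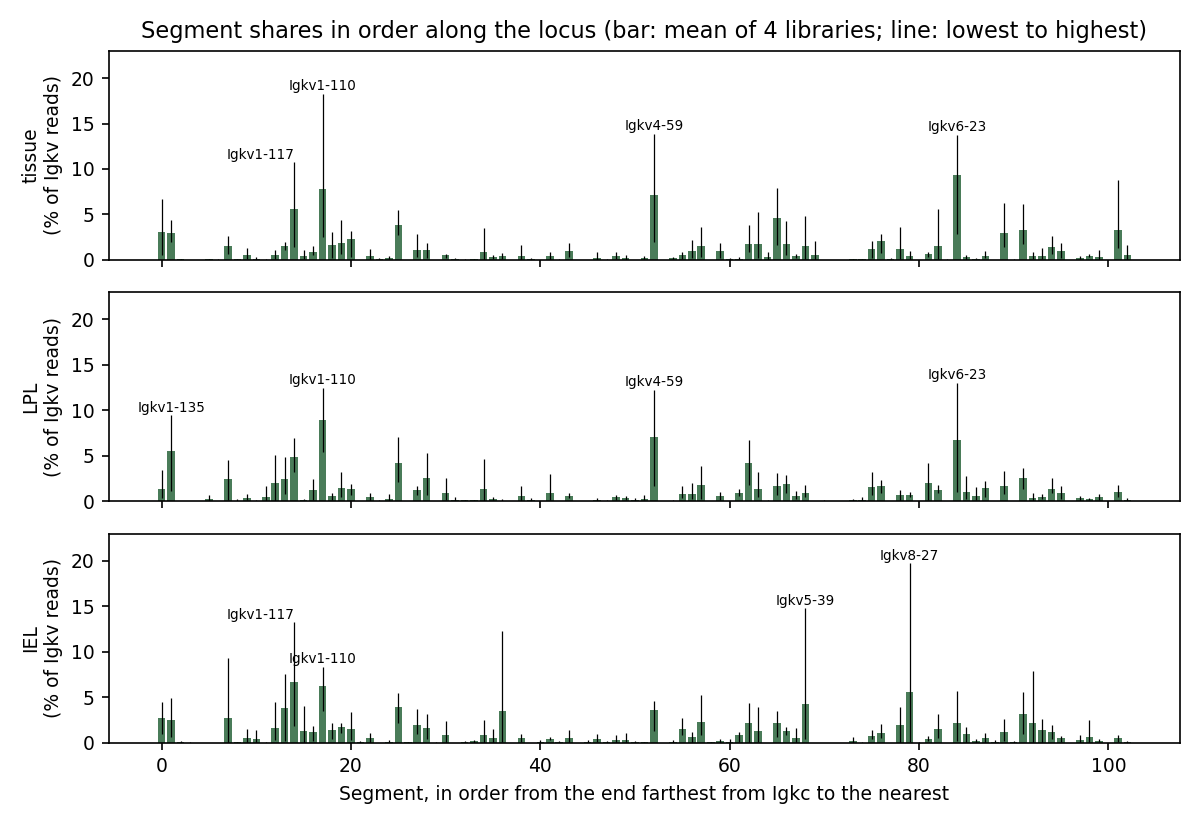
Share of Igkv reads, in percent, of each of the 103 segments in their order along chromosome 6 in tissue, LPL and IEL libraries; bars are means of 4 libraries and lines run from the lowest to the highest library. Igkv1-110 and Igkv1-117 near the far end, Igkv4-59 in the middle and Igkv6-23 towards Igkc stand out in tissue and LPL, and the long lines of Igkv8-27 and Igkv5-39 in IEL each come from 1 library.

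Single segments were tested with edgeR over all 14716 genes that passed the count filter, and a call is an adjusted p under 0.05. The filter kept 75 members. Of the 28 not tested, 26 had reads, at most 308 in any library (Igkv4-62 in WT LPL 1), and all 28 held 0.62% of Igkv reads. As 19 of the 75 passed only through the LPL libraries and so had to differ there, calls are also given for the 56 that passed without them.

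LPL was compared with tissue to ask how the isolated preparation differs from the whole organ. In this comparison 48 of the 75 tested segments were higher in LPL and 0 lower, against 27.3% of all tested genes called higher, 28% called lower and 55.3% called in either direction. Of the 56 that passed without LPL libraries 37 were higher, with a median log2 difference of 3.24. The median log2 difference of the 75 was 3.27, beside 0.03 over all genes, and all 75 differences were above 0. Without TMM factors the median of all genes was 0.45 and 65 segments were called higher. Without WT LPL 1 fewer segments, and fewer of all tested genes, were called, and the median of the segments fell to 1.85. In 24 of the 75 all LPL libraries lay above all tissue libraries, near the 26.5% of all tested genes that did so. The 75 include the 19 that passed the filter only through LPL, and this count was not made without them.

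Igkv1-110 stood at 14.1, 21.0, 15.9 and 5.87 CPM in the tissue libraries and at 373, 83.5, 311 and 48.4 CPM in the LPL libraries, each group in the order WT 1, WT 2, KO 1, KO 2. The groups did not overlap, and LPL was 3.87 higher (log2, SE 0.72, edgeR adjusted p = 0.00206). Igkv4-50 read 0.0863, 1.57, 0.109 and 0.359 CPM in tissue and 45.5, 6.10, 14.2 and 11.6 CPM in LPL, also without overlap. It was 5.34 higher (log2, SE 0.96, edgeR adjusted p = 0.00171) and was called under all 13 alternatives.

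Igkv8-19 read 0.690, 1.73, 0.870 and 0.599 CPM in tissue and 99.3, 9.80, 56.2 and 4.39 CPM in LPL. It was 5.40 higher (log2, SE 1.14, edgeR adjusted p = 0.00379), again under all 13 alternatives. Igkv17-121 read 1.64, 5.53, 0.326 and 0.240 CPM in tissue and 333, 0.260, 32.3 and 13.2 CPM in LPL, so WT LPL 2 lay within the tissue range. Its difference of 5.90 (log2, SE 1.65, edgeR adjusted p = 0.0143) came to 1.28 (edgeR adjusted p = 0.337) without WT LPL 1, and was also not called without WT tissue 1 (0.0508) or KO tissue 2 (0.0540).

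A pair of called segments, Igkv12-89 and Igkv1-122, was at 0 in both KO tissue libraries. Both are among the 19 that passed the filter only through LPL, with at most 3 and 2 reads in any other library, so their calls were favoured by the filter and are given as values only. Igkv12-89 read 0.173 and 0.248 CPM in WT tissue and 11.6, 0.649, 3.03 and 1.24 CPM in LPL. Igkv1-122 read 0.173 and 0.0825 CPM in WT tissue and 113, 0.195, 2.51 and 0.494 CPM in LPL. The latter was therefore almost all from WT LPL 1, and it was not called without that library (edgeR adjusted p = 0.0624), nor without WT tissue 1, WT tissue 2, KO tissue 2 or KO LPL 1 (0.0525 to 0.0769).

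Of the 12 plasma cell markers, 8 were called higher and 2 lower (Sdc1 and Prdm1) in LPL than in tissue, with a median log2 difference of 2.17, and none of the 12 B cell markers was called. Of the 11 tested genes for other immunoglobulin chains, 6 were higher and 0 lower. The sums of pancreas markers given above moved with the same contrast, and those of epithelium markers moved the opposite way. The part of either in the segments' levels was not tested.

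IEL libraries, compared with LPL, gave the reverse. Of the 75 tested segments 51 were lower in IEL and 0 higher, against 7.92% of all tested genes called lower and 11.5% higher. Of the 56 that passed without LPL libraries 42 were lower, with a median log2 difference of -4.51. The median over the 75 was -4.54, and 74 of the 75 were below 0. In 45 of the 75 every LPL library lay above every IEL library, against 15.1% of all tested genes. This count was also not made without the 19 that passed only through LPL, which favour it. The number of called segments depended on single libraries. With 1 library left out at a time, the median log2 difference of the tested segments ran from -4.99 to -3.06. Each of these fits also called fewer of all tested genes.

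Igkv4-59 read 111, 81.8, 208 and 53.3 CPM in LPL and 5.89, 9.91, 1.22 and 3.13 CPM in IEL libraries, with no overlap. It was lower by a log2 difference of -4.75 (SE 0.61, edgeR adjusted p = 0.00132). Igkv4-90, Igkv4-79 and Igkv14-130 were at 0 in all 4 IEL libraries. Their LPL levels were 0.494 to 11.3 CPM, 0.779 to 7.05 CPM and 0.519 to 6.36 CPM. All 3 passed the filter only through LPL, with at most 5, 12 and 4 reads in any other library, and had to differ here.

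Igkv4-53 read 68.7, 4.48, 9.35 and 1.17 CPM in LPL against 0.178 and 1.00 CPM in WT IEL and 0 in both KO IEL libraries. The groups of 4 did not overlap. Its log2 difference of -7.44 (SE 1.66, edgeR adjusted p = 0.0180) was not called without KO LPL 1 or any single IEL library, with edgeR adjusted p between 0.0541 and 0.0647. Of the 12 plasma cell markers 10 were lower in IEL than in LPL and 0 higher, while none of the B cell markers was called.

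Against tissue, IEL libraries differed in few segments. Only 5 of 75 were called lower and 0 higher, which is 6.67% of the segments beside 23.1% of all tested genes called lower and 21.9% higher. Of the 56 that passed without LPL libraries 3 were lower. The median log2 difference of the 75 was -1.04, and 59 of 75 were below 0. The 5 were Igkv4-59, Igkv6-17 and Igkv3-2, with Igkv4-90 and Igkv4-61, which passed the filter only through LPL.

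Igkv6-17 read 5.09, 10.7, 5.44 and 3.35 CPM in tissue and 1.34, 2.00, 0.204 and 2.03 CPM in IEL, without overlap, a log2 difference of -2.09 (SE 0.69, edgeR adjusted p = 0.0338). Igkv3-2, next to Igkv3-1 at the Igkc end of the locus, read 3.28, 7.10, 1.41 and 20.6 CPM in tissue and 1.07, 0.400, 0.102 and 0.645 CPM in IEL, a log2 difference of -3.79 (SE 1.14, edgeR adjusted p = 0.0238). Igkv4-61 read 0.863, 0.495, 0.217 and 0.240 CPM in tissue and 0.0892, 0.10, 0 and 0.0922 CPM in IEL, a log2 difference of -2.37 (SE 0.69, edgeR adjusted p = 0.0207). It had at most 10 reads in any library outside LPL, so these values are near the floor.

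Igkv4-90 read 0.173 to 0.479 CPM in tissue and 0 in IEL. Igkv4-59, with 3.91 to 73.3 CPM in tissue and 1.22 to 9.91 CPM in IEL, overlapped between the groups, and its log2 difference was -1.74 (SE 0.59, edgeR adjusted p = 0.0381). None of the 5 calls held without KO tissue 2. With 1 library left out at a time, the median log2 difference of the tested segments ran from -1.50 to -0.40. Each of these fits also called fewer of all tested genes.

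The effect of lnc13 loss was tested within each preparation. edgeR called 0 of 75 segments in tissue, LPL or IEL, beside 0% of all 14716 genes in each, and the smallest adjusted p of a segment was 1. At an unadjusted p under 0.05, tissue gave 5 segments among 463 genes, LPL 8 among 448 and IEL 9 among 120. DESeq2's Wald test called 6 genes in tissue, 1 in LPL and 1 in IEL, of which 1 was a segment, Igkv4-59 in tissue.

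Uncalled differences between genotypes leaned towards lower levels in KO. The median log2 difference of the 75 segments in tissue was -1.34 (-0.01 over all genes), with 60 of the 75 below 0. It was -0.93 for LPL (0.01 over all genes), with 57 below 0. For IEL it was -1.37 (-0.02 over all genes), with 54 below 0, 17 above and the rest at exactly 0. Over the 56 segments that passed without LPL libraries the medians were -1.01 in tissue, -0.92 in LPL and -1.55 in IEL. Segments of a library share its total kappa level, so these are not independent observations. The summed level had a WT mean of 374.5 ± 217.6 CPM and a KO mean of 160.5 ± 104 CPM in tissue (SD, n = 2 each). The means were 3596 ± 4142 and 1719 ± 1182 CPM in LPL, and 173.4 ± 63.6 and 84.7 ± 9.65 CPM in IEL. WT and KO sums overlapped in tissue and LPL and did not overlap in IEL. The tissue libraries differed in Ddx3y by replicate number, and among those without it (replicate 1) the WT sum was 2.54 times the KO sum, and among those with it (replicate 2) 2.26 times, with 1 library of each genotype in each. In LPL the median turned to 1.69 without WT LPL 1. In tissue it came to -0.27 without WT tissue 2 and -2.74 without KO tissue 2.

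Both KO libraries lay below both WT libraries for 26 of the 75 segments in tissue, against 12.3% of all tested genes, and above for 0, against 13.2%. They lay below for 11 segments in LPL, against 8.62%, and above for 0, against 9.89%. In IEL they lay below for 31 segments, against 12.3%, and above for 0, against 14.8%. The 75 include the 19 that passed the filter only through LPL, most of them with few reads elsewhere. These counts were not made without them. In the tissue and LPL comparisons the B cell marker sum was also highest in a WT library, WT tissue 1 and WT LPL 1, though the summed Igkv level was higher in WT tissue 2 than in WT tissue 1. In IEL the plasma cell marker sum, carried mostly by Txndc5 and Xbp1, was 594 and 639 CPM in WT and 505 and 501 CPM in KO, also without overlap. Jchain alone read 95.4 and 168 CPM in WT IEL and 57.8 and 51.1 CPM in KO IEL. The B cell marker sum in IEL was 33.6 and 49.5 against 21.8 and 36.1 CPM, with overlap. The part of B cell and plasma cell content in these differences was not tested.

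In tissue Igkv4-59 (chr6:69438218-69438741) showed the smallest unadjusted p. It read 18.3 and 73.3 CPM in WT and 3.91 and 4.55 CPM in KO, without overlap. Its log2 difference was -3.43 (SE 0.83, edgeR adjusted p = 1), and DESeq2's Wald test gave an adjusted p of 0.0135. In LPL the same segment read 111 and 81.8 CPM in WT and 208 and 53.3 CPM in KO, which overlap. Its effect in LPL against that in tissue differed by 3.87 (log2, SE 1.08), with an edgeR adjusted p of 1.

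The next smallest p values in tissue belonged to Igkv16-104, with 2.67 and 23.4 CPM in WT and 0.978 and 1.56 CPM in KO, and to Igkv6-20, with 0.431 and 1.32 CPM in WT and 0.109 and 0.120 CPM in KO. In LPL, Igkv14-111 read 116 and 16.2 CPM in WT and 2.60 and 4.32 CPM in KO, a log2 difference of -4.24 (SE 1.05, edgeR adjusted p = 1). Igkv6-20 and Igkv2-137 followed, with 26.6 and 10.8 against 3.55 and 2.10 CPM, and 72.6 and 22.7 against 8.49 and 3.40 CPM. Igkv6-20 was thus lower in both KO libraries in tissue and in LPL, without being called in either. It passed the filter only through LPL, with at most 16 reads in any other library, so its tissue values are near the floor.

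In IEL the smallest p values belonged to Igkv2-112, with 5.26 and 1.60 CPM in WT and 0.204 and 0 CPM in KO, and to Igkv13-84, with 0.892 and 26.8 CPM in WT and 0.102 and 0.645 CPM in KO. The latter difference rests on WT IEL 2. Igkv4-63 read 1.43 and 0.300 CPM in WT and 0 in both KO libraries. In none of the pairs of preparations was a segment's KO effect called different. For each pair edgeR called 0 of 75 segments and 0% of all genes. At an unadjusted edgeR p under 0.05, LPL against tissue gave 4 segments among 288 genes. IEL against tissue gave 0 among 123, and IEL against LPL gave 1 among 112.

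**Figure D5:**
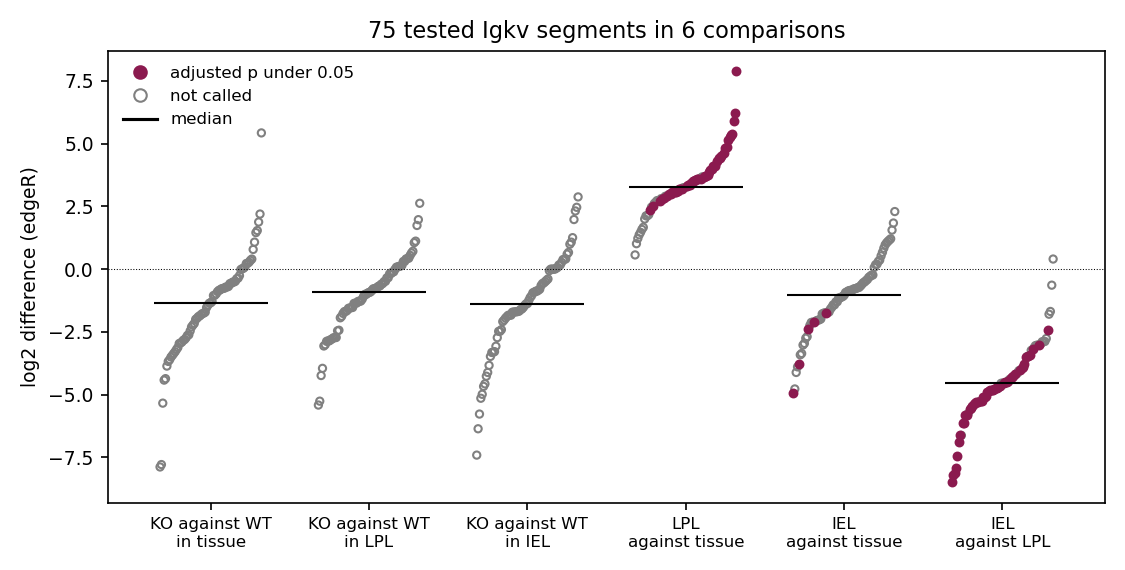
log2 difference from edgeR of each of the 75 tested segments in 6 comparisons, sorted within each, with filled points called at an adjusted p under 0.05 and a black line at the median. The medians are -1.34, -0.93 and -1.37 with 0 calls for KO against WT in tissue, LPL and IEL, then 3.27 with 48 calls, -1.04 with 5 calls and -4.54 with 51 calls between preparations.

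Transcripts of the recombination machinery were near the edge of detection. Rag1, Rag2, Dntt, Igll1 and Vpreb1, genes of V(D)J recombination and its precursor B cell stage, summed to at most 1.43 CPM, and none passed the count filter. Lambda light chain constant genes, the alternative to kappa, had 0.0319 to 0.212 reads for each Igkc read. The ratio was highest in the WT IEL libraries, 0.212 and 0.210, against 0.106 and 0.0321 in KO IEL. Iglc1 read 26.8 and 53.9 CPM in WT IEL and 3.98 and 1.66 CPM in KO IEL. Iglc3 overlapped, with 5.98 and 6.80 CPM in WT IEL and 6.33 and 0.830 CPM in KO IEL. edgeR called neither these genes nor Iglc2 for KO against WT in IEL, and the ratio was not tested.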

How the data were processed

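Poly(A) RNA of whole small intestine, LPL and IEL preparations had been sequenced from NEBNext Ultra II libraries, per the labels' protocols. The 12 deposited files hold whole raw read counts for each Entrez identifier; the file headers name HISAT2 alignments and featureCounts, while the submitters' processing notes list TopHat, DESeq, featureCounts and mm10. Strandedness and the handling of reads matching several genes are not given in the sources used here. CD8 and RNA antisense purification samples were not used.

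Symbols, found for 25275 of 27179 identifiers (99.17% of reads), and coordinates came from a RefSeq table of GRCm38. All 12 libraries were fitted as 6 groups with edgeR 4.0.16 (R 4.3.3), with TMM factors, filterByExpr (minimum count 10), the quasi-likelihood test and Benjamini-Hochberg adjustment over 14716 genes at 0.05; preparations were compared over both genotypes. The procedure was tested on simulated counts. DESeq2 1.42.0 and the other alternatives are described in the closing section. Shares and their summaries were computed in Python 3.11.15, without tests.

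Members, marker lists, tests and alternatives were chosen with earlier results of these data known. Segments named were the 2 leading ones of each library, the 5 of highest mean CPM, and per comparison up to 5 called in each direction with the largest fold at a mean of at least 1 CPM, or the 3 of smallest p where none was called; segments named for their ranges, Igkv6-15, Igkv4-62 and Igkv1-131 were added after their values were seen. No Igkv sequence or promoter was printed or searched here.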

Additional observations from a re-analysis of the deposited data

Results flagged for a closer look

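Sets of 4 libraries, 1 preparation each, were examined for the share of every named segment and for library summaries. In 16 of 105 sets, all of them segment shares, the highest library lay apart from the other 3 by a larger part of the range than Dixon's 95% critical value for 4 samples. For independent, normally distributed values about 1 in 20 would be flagged, here 5.25. Segment shares depend on each other and cannot fall below 0, so that number is not a baseline for the 16. In tissue these were Igkv3-2 (8.80% of Igkv reads) and Igkv5-39 (4.81%) in KO tissue 2, Igkv5-48 (3.83%) in WT tissue 1, Igkv16-104 (4.43%) in WT tissue 2 and Igkv8-19 (1.0%) in KO tissue 1. In LPL they were Igkv13-84 (0.237%) and Igkv5-39 (1.78%) in KO LPL 1, Igkv1-122 (1.72%) in WT LPL 1, Igkv4-61 (0.720%) in WT LPL 2 and Igkv14-130 (0.720%) in KO LPL 2.

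In IEL the libraries that stood apart were WT IEL 2 for Igkv13-84 (12.3%) and Igkv17-127 (9.30%), KO IEL 1 for Igkv8-27 (19.7%) and KO IEL 2 for Igkv5-39 (14.8%). WT IEL 1 stood apart for Igkv4-63 (1.11%), and KO IEL 1 for Igkv1-122 (0.112%), a share that is 1 read against 0 in the other 3 libraries. Several segments were named because they led a library, so a high share in that library was part of their choice. Igkv5-39 was the only named segment to stand apart in all 3 preparations, each time in a KO library. The other KO library held 0.125% in tissue and 0.497% in LPL, each the lowest of its preparation, and 1.11% in IEL. The high shares were thus not shared by KO replicates.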

How the results depend on the processing

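Leaving out single libraries gave 0 to 0 called segments for KO against WT in tissue, LPL and IEL, 25 to 63 for LPL against tissue, 0 to 7 for IEL against tissue and 16 to 59 for IEL against LPL; the median KO difference in LPL ran from -1.88 to 1.69, the latter without WT LPL 1. In these fits 1 library is left in a group and is assumed to vary like the others. With DESeq2 there was 1 called segment for KO against WT in tissue and 11 for IEL against tissue, where 9 were called with no filter on low counts; the cause was not tested. Among single named segments, 55 values under an alternative lost their call, 1 gained one and 215 kept their side, and none turned.

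The Shannon form of the effective number, larger by its construction, gave 33.7, 30.5, 33.9, 35.7, 38.2 and 26.2 as means of WT and KO tissue, WT and KO LPL, and WT and KO IEL. Dividing reads by gene span, an alternative chosen after seeing the data, moved the mean leading share of WT LPL to 13.5%. Without TMM factors the median of all genes shifted to 0.45 (log2) in LPL against tissue, -0.26 in IEL against LPL, 0.24 in IEL against tissue and -0.29 for KO in tissue, and calls between preparations moved from 4016 higher and 4118 lower to 5928 and 2661 in LPL against tissue; no segment's call changed direction. After group means were removed, the correlation of same-numbered WT and KO libraries was 0.638 (tissue), 0.301 (LPL) and 0.465 (IEL), but 2 pairs cannot show pairing, since exchanging them only turns the sign, and no label says what a number marks; in tissue the number goes with Ddx3y. With the replicate number as a block, 0 segments were called for KO in each preparation, 37 in LPL against tissue, 4 in IEL against tissue and 45 in IEL against LPL. Depth limits the IEL and KO tissue shares most, where 800 to 2183 Igkv reads underlie a library.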
